A study of Mus musculus with 4 samples.

Results

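Chemokine receptors of neutrophils and monocytes were examined in RNA-seq libraries of mouse myeloid cells, as the 6 genes Cxcr2, Cxcr4, Ccr1, Ccr2, Ccrl2 and Cx3cr1. The genes were chosen by name, and each had a single row among the 24706 genes listed for every library. There were 4 libraries of cells labelled myeloid, 2 labelled wt and 2 labelled cko for genotype. By the account of the study, the cko mice were PD-1f/f; LysM-Cre, in which Cre recombinase is driven from the lysozyme locus and deletes a floxed exon of Pdcd1, and the controls were PD-1f/f mice in the results and wild-type mice in the methods. The groups therefore also differed in the presence of Cre. The cells are described as CD11b+ cells sorted from liver at postnatal day 3 in the results and as whole livers at postnatal day 2 in the methods, and the number of pups behind a library is not given in the sources used here. The libraries are therefore replicates by label only. Their p-values from limma set a group difference against the spread between libraries, which is drawn in part from other genes of similar level.

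Chemokine receptors are G protein-coupled receptors of the cell surface that steer leukocytes along gradients of small secreted proteins. Cxcr2 draws mature neutrophils out of haematopoietic tissue and into inflamed sites, while Cxcr4 holds immature leukocytes close to stromal cells that make Cxcl12. Ccr1 answers several CC chemokines on neutrophils and monocytes, Ccr2 releases classical monocytes into blood in answer to Ccl2, and Cx3cr1, the receptor of fractalkine, marks patrolling monocytes and many tissue macrophages. Ccrl2 is an atypical member of the family that binds the attractant chemerin and does not trigger classical chemotactic signalling. In the neonate the liver still carries blood formation, so that its myeloid cells range from progenitors to mature granulocytes.

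Values were deposited as FPKM (fragments scaled to the gene's length in kilobases and to the counted reads of the library), which compare levels between genes per length. Whole reads could be worked out from them, and the libraries held 17691505 to 22212407 counted reads. The targeted gene, Pdcd1, gave 28.5 and 34.7 FPKM in wt replicates 1 and 2 and 17.1 and 21.4 FPKM in cko replicates 1 and 2, so transcripts of it were present in every library. Lyz2, the gene at the Cre locus, had 31306 and 32147 FPKM in wt and 10422 and 8127 FPKM in cko. Itgam, which encodes CD11b, had 48.5 to 54.3 FPKM, and the neutrophil gene S100a9 had 26142 to 52186 FPKM. Listed monocyte genes summed to 577 to 839 FPKM and erythroid genes to 1424 to 3726 FPKM. Listed hepatocyte genes summed to 59.7 to 144 FPKM, and the T cell gene Cd3e did not exceed 0.0523 FPKM. The libraries thus carried the marker genes of their label, with neutrophil genes far in excess and red cell, lymphoid and hepatocyte transcripts present.

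Groups were compared with limma on log2(FPKM + 1). Of all genes, 10779 averaged 1 FPKM or more and were tested, all 6 receptors among them. At the threshold of the study's methods (an absolute log2 fold change of 1 or more with adjusted p below 0.05) the receptors called were 0 of 6, against 0% of all genes, where 16.4% of genes had an unadjusted p under 0.05. At the threshold of its results (an absolute log2 fold change above 1 and an unadjusted p under 0.01) Ccrl2 passed as higher, 1 of 6, against 1.88% of all genes in that direction, and no receptor passed as lower, against 0.408%. Ccrl2 and Cxcr2 had both cko libraries above both wt libraries, 2 of 6 against 33.6% of all genes. Cxcr4 had both cko libraries below both wt libraries, 1 of 6 against 18% of all genes. The log2 fold change was above 0 for 5 of 6 receptors, against 60.4% of all genes. Libraries of the groups overlapped for Ccr1, Ccr2 and Cx3cr1. For 1 gene and 2 libraries a group, the smallest two-sided p of an exact permutation test is 0.333, which Ccrl2, Cxcr2 and Cxcr4 reached.

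**Figure D1:**
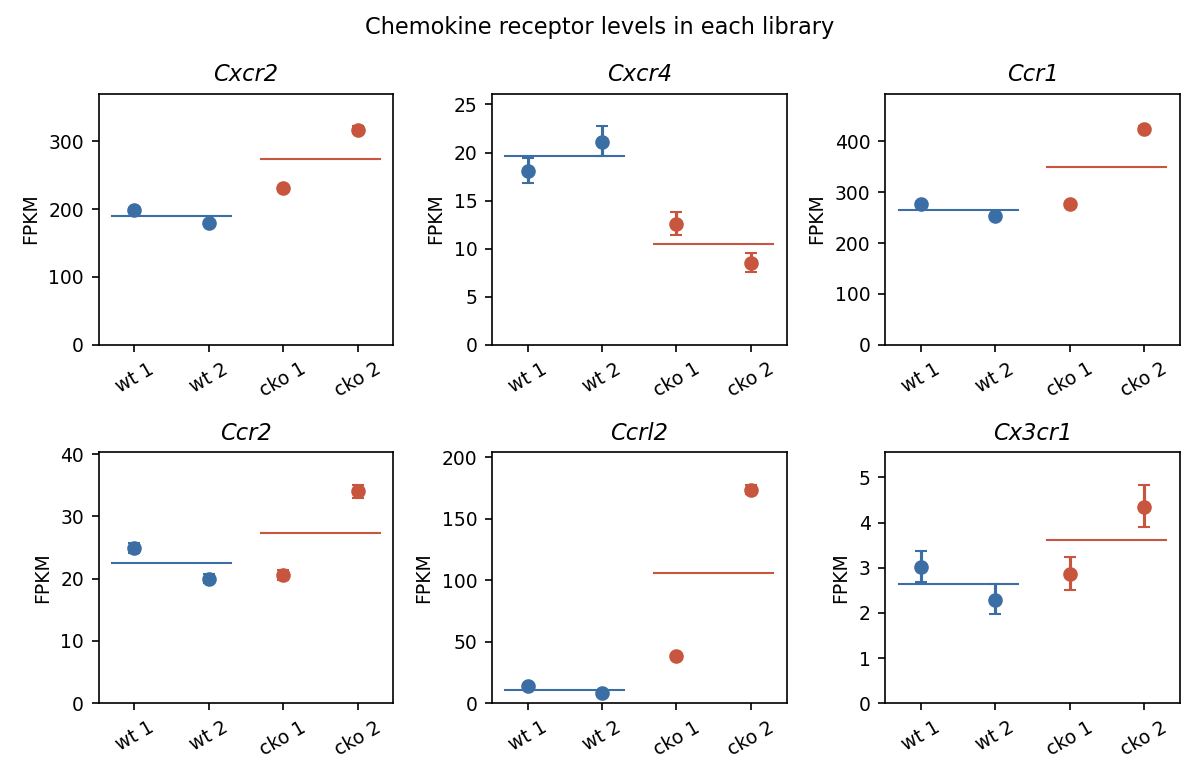
FPKM of the 6 receptors in each library (points, wt in blue and cko in red) with group means as lines and 95% Clopper-Pearson intervals of the reads as bars, which are smaller than the point where not seen. Ccrl2 lay at 14.3 and 7.95 FPKM in wt and 38.5 and 174 FPKM in cko, and Cxcr4 lay at 18.1 and 21.1 FPKM in wt and 12.5 and 8.50 FPKM in cko.

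Ccrl2, the atypical receptor, had the largest difference among the 6. It had 14.3 and 7.95 FPKM in wt replicates 1 and 2, from 825 and 389 reads, and 38.5 and 174 FPKM in cko replicates 1 and 2, from 1876 and 7979 reads. Every cko library thus lay above every wt library, and cko replicate 2 stood far above cko replicate 1. The group means were 11.1 ± 4.48 FPKM (SD, n = 2) in wt and 106 ± 95.5 FPKM (SD, n = 2) in cko. The log2 fold change was 2.83 (standard error 0.70, 95% interval 1.09 to 4.56, unadjusted p = 0.00773, adjusted p = 0.214 from limma), which lay above 99.96% of all tested genes. Its size rested on cko replicate 2, without which it was 1.76, and the unadjusted threshold was no longer passed on leaving out wt replicate 1 or wt replicate 2, with no minimum level, or with no trend in the limma fit. Counting error was small beside this spread, with 95% Clopper-Pearson intervals of 36.8 to 40.3 FPKM in cko replicate 1 and 169.8 to 177 FPKM in cko replicate 2.

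Ccrl2 lies on chromosome 9 from 111054486 to 111057519 on the minus strand (GRCm38). Its upstream region is shown because its transcript differed most, at the RefSeq start, among 3, nearest to the start in the files. RefSeq promoters (GRCm38.p6) were searched over the 250 bases before the start site, on both strands, for the NF-κB consensus, for an AP-1 site (TGANTCA), a PU.1 site (GAGGAAG) and a C/EBP site (TTNCNNAA). The region at chr9:111057519-111057768, minus strand, read 5′ to 3′ with matches in capitals, was
Ccrl2: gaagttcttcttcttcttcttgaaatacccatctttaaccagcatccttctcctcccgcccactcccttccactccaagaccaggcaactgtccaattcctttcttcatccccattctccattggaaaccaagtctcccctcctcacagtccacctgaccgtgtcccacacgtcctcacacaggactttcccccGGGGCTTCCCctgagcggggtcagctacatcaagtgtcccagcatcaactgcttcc
It held 1 match, to the NF-κB consensus (GGGGCTTCCC, 56 to 47 bases before the start), which 7.25% of 32817 mouse promoters of this length also held. None of the other motif searches matched there. A match describes the letters and not a bound site.

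Cxcr2, the receptor of neutrophil-attracting CXC chemokines, was among the most abundant transcripts. It had 199 and 179 FPKM in wt (13455 and 10293 reads) and 230.3 and 317 FPKM in cko (13156 and 17100 reads), above 97.9% to 98.8% of tested genes in each library. The cko libraries both lay above the wt libraries, by a smaller margin in replicate 1 than in replicate 2. Its group means were 189 ± 13.7 FPKM in wt and 274 ± 61.4 FPKM in cko (SD, n = 2), and the log2 fold change was 0.51 (standard error 0.19, 95% interval 0.04 to 0.99, unadjusted p = 0.0393, adjusted p = 0.281 from limma). Without cko replicate 2 the log2 fold change was 0.29, and with median-of-ratios scaling between libraries it was 0.40 with an unadjusted p of 0.0876.

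Cxcr4, the retention receptor, was the only member with a negative log2 fold change. It had 18.1 and 21.1 FPKM in wt (727 and 719 reads) and 12.5 and 8.50 FPKM in cko (425 and 272 reads). Both cko libraries lay under both wt libraries. The means were 19.6 ± 2.14 FPKM in wt and 10.5 ± 2.86 FPKM in cko (SD, n = 2), a log2 fold change of -0.86 (standard error 0.22, 95% interval -1.41 to -0.31, unadjusted p = 0.00930, adjusted p = 0.214 from limma). This difference was under the fold minimum and lay above 1.46% of all tested genes. In all 15 other settings it stayed below 0, and without cko replicate 1 it reached -1.11 and passed the unadjusted threshold.

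Cells other than neutrophils also carry Cxcr4, among them B cells. Listed B cell genes had both cko libraries below both wt libraries for 6 of 6 tested members, against 18% of all genes, with sums of 55.3 and 69.8 FPKM in wt and 34.7 and 45.4 FPKM in cko. Listed erythroid genes did so for 8 of 10, with sums of 2341 to 3726 FPKM in wt and 1424 to 1522 FPKM in cko. Late neutrophil genes did so for 8 of 12 and monocyte genes for 2 of 11, while 6 of 11 monocyte genes had both cko libraries above, against 33.6% of all genes. Early neutrophil genes did so for 0 of 7 tested members, and 4 of 7 had both cko libraries above. Within the B cell list, Cd79a had 16.4 and 21.6 FPKM in wt and 10.8 and 12.7 FPKM in cko. The part of these cells in the Cxcr4 difference was not tested, and in such libraries fewer cells of a type and less RNA per cell cannot be told apart.

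The upstream regions of Cxcr2 and Cxcr4 are set side by side because these receptors differed in opposite directions, and the region of Ccr1 because it was the only other member with a match to the NF-κB consensus. They lie at chr1:74153744-74153993 on the plus strand (Cxcr2), chr1:128592300-128592549 on the minus strand (Cxcr4) and chr9:123968693-123968942 on the minus strand (Ccr1), from RefSeq GRCm38.p6, 5′ to 3′ with matches in capitals.
Cxcr2: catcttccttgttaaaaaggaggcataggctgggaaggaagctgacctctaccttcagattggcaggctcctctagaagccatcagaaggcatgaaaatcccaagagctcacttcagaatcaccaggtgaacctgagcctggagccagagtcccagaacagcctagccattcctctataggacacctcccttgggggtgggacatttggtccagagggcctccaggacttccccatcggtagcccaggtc
Cxcr4: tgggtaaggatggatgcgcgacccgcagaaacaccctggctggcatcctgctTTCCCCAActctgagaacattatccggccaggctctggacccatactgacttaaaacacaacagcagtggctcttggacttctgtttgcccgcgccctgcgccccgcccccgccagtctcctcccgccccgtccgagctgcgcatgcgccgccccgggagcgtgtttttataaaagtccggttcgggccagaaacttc
Ccr1: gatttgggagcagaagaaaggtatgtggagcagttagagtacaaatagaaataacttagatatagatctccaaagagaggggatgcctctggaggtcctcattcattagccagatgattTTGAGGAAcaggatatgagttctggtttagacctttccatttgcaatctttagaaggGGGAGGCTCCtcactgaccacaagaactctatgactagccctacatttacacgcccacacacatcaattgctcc
The Cxcr2 region held none of the motifs searched, and that of Cxcr4 held 1 C/EBP match (TTCCCCAA), a motif found in 36.8% of promoters. The Ccr1 region held an NF-κB match (GGGAGGCTCC, 74 to 65 bases before the start) and a C/EBP match on the opposite strand, shown as TTGAGGAA. GC content was 54.4% for Cxcr2, 61.2% for Cxcr4, 43.6% for Ccr1 and 54% for Ccrl2.

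Pairs of receptors were also compared within each library, as differences of log2(FPKM + 1), which depend little on scaling between libraries at high levels and more at low levels because of the added 1. Cxcr2 exceeded Cxcr4 by 3.39 and 3.03 in wt replicates 1 and 2 and by 4.09 and 5.06 in cko replicates 1 and 2 on this log2 scale. In linear FPKM this was 10.98-fold and 8.49-fold in wt and 18.4-fold and 37.3-fold in cko. The groups did not overlap, and the mean log2 ratio was 1.37 higher in cko (exact two-sided permutation test, p = 0.333, the smallest this design allows). It was 0.89 higher without cko replicate 2 and 1.86 higher without cko replicate 1. The ratio of Ccrl2 to Ccr1 was 2.46 higher in cko on the log2 scale, and 1.69 without cko replicate 2.

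**Figure D2:**
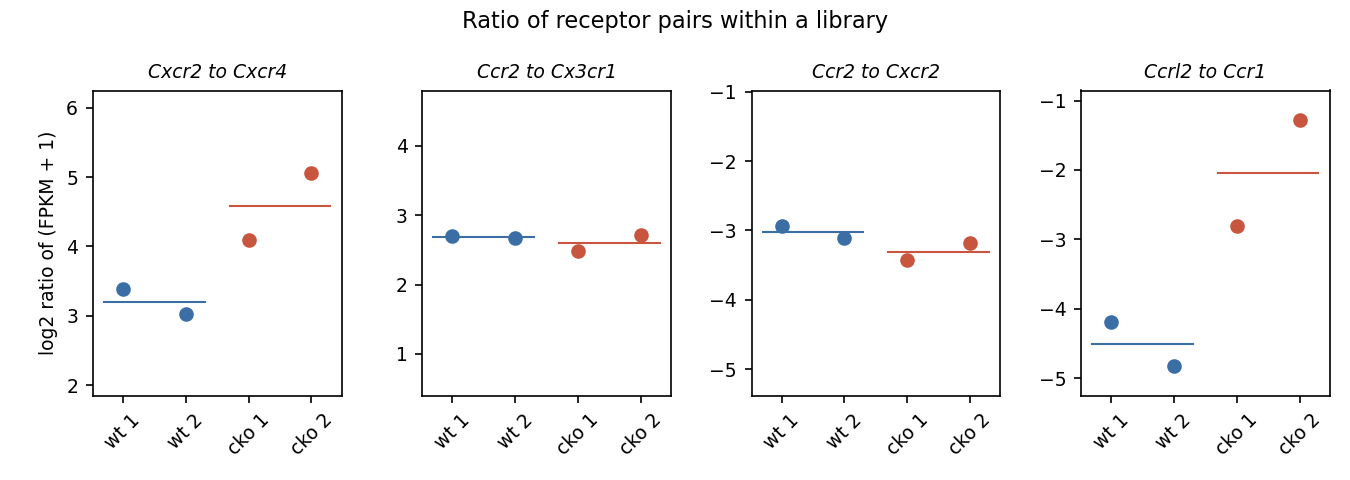
Log2 ratio of (FPKM + 1) for receptor pairs within each library (points, wt in blue and cko in red, lines for group means), with all panels spanning the same number of log2 units on axes that start at different values. The Cxcr2 to Cxcr4 ratio lay at 3.39 and 3.03 in wt and 4.09 and 5.06 in cko, while the Ccr2 to Cx3cr1 ratio lay between 2.48 and 2.71 in all libraries.

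Ccr1, a receptor for Ccl3, Ccl6 and Ccl9, was the most abundant chemokine receptor in every library. It had 277 and 253 FPKM in wt (17444 and 13512 reads) and 277 and 424 FPKM in cko (14695 and 21254 reads). The value of cko replicate 1 fell between those of the wt libraries, and only cko replicate 2 stood apart. The log2 fold change was 0.37 (standard error 0.23, 95% interval -0.20 to 0.93, adjusted p = 0.449 from limma), and without cko replicate 2 it was 0.06. A difference was therefore not resolved beyond the spread between libraries.

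The monocyte receptors overlapped between the groups as well. Ccr2 had 24.99 and 20.01 FPKM in wt (3752 and 2546 reads) and 20.5 and 34.0 FPKM in cko (2599 and 4068 reads). Only cko replicate 2 was above the wt libraries, and the log2 fold change of 0.23 (standard error 0.27, 95% interval -0.44 to 0.90, adjusted p = 0.689 from limma) turned to -0.12 without it. Cx3cr1 was the least abundant member, with 3.01 and 2.29 FPKM in wt (301 and 194 reads) and 2.85 and 4.35 FPKM in cko (241 and 347 reads). For Cx3cr1 the difference on the log2 scale was 0.32 (standard error 0.25, 95% interval -0.29 to 0.94, adjusted p = 0.536 from limma), and 0.09 without cko replicate 2. Ccr2 exceeded Cx3cr1 by a log2 ratio of 2.70 and 2.68 in wt and 2.48 and 2.71 in cko, a difference of -0.09 between groups (exact permutation test, p = 1) that turned to 0.02 without cko replicate 1. In linear FPKM this ratio was 8.31 and 8.75 in wt and 7.19 and 7.81 in cko, where the groups did not overlap, and with a pseudocount of 0.1 the log2 difference was -0.17. Ccr2 relative to Cxcr2 was lower in cko by a log2 ratio of -0.28, with the groups apart (exact permutation test, p = 0.333).

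Beside these receptors, listed monocyte genes had both cko libraries above both wt libraries for 6 of 11 members, against 33.6% of all genes, and below for 2 of 11, near the 18% of all genes. Their sums were 623 and 577 FPKM in wt and 617 and 839 FPKM in cko, so that cko replicate 2 was again the highest library. By the unadjusted threshold 1 of 11 passed as lower, against 0.408% of all genes, and 0 as higher, against 1.88%. This was Cd300e, at 2.54 and 3.56 FPKM in wt and 0.971 and 0.731 FPKM in cko (log2 fold change -1.12). Csf1r, the receptor that sustains monocytes and macrophages, had 40.9 and 33.0 FPKM in wt and 45.6 and 113 FPKM in cko, whereas Ly6c2, a surface antigen of classical monocytes, had 343 and 359.9 FPKM in wt and 333 and 315 FPKM in cko. Listed macrophage genes had sums of 389 and 265 FPKM in wt and 267 and 451 FPKM in cko, with 1 of 10 tested members apart as higher, against 33.6% of all genes. Listed late neutrophil genes were lower in both cko libraries for 8 of 12 members, against 18% of all genes. Their sums went from 162691 and 138799 FPKM in wt to 112251 and 92979 FPKM in cko. By the unadjusted threshold 2 of 12 passed as lower, against 0.408% of all genes, namely Camp and S100a8 (log2 fold changes -1.11 and -1.07). Csf3r, the receptor for the granulocyte growth factor G-CSF, went the other way, with 81.5 and 80.3 FPKM in wt and 103.6 and 140.0 FPKM in cko. Cxcr2, like Csf3r and Lcn2 but unlike most genes of that list, lay higher in both cko libraries. Early neutrophil genes had both cko libraries above both wt libraries for 4 of 7 tested members, against 33.6% of all genes. For 0 of the 7 both lay below, against 18%. Their sums were 1422 and 1358 FPKM in wt and 2109 and 1705 FPKM in cko. The part of cell proportions in the receptor values was not tested.

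**Figure D3:**
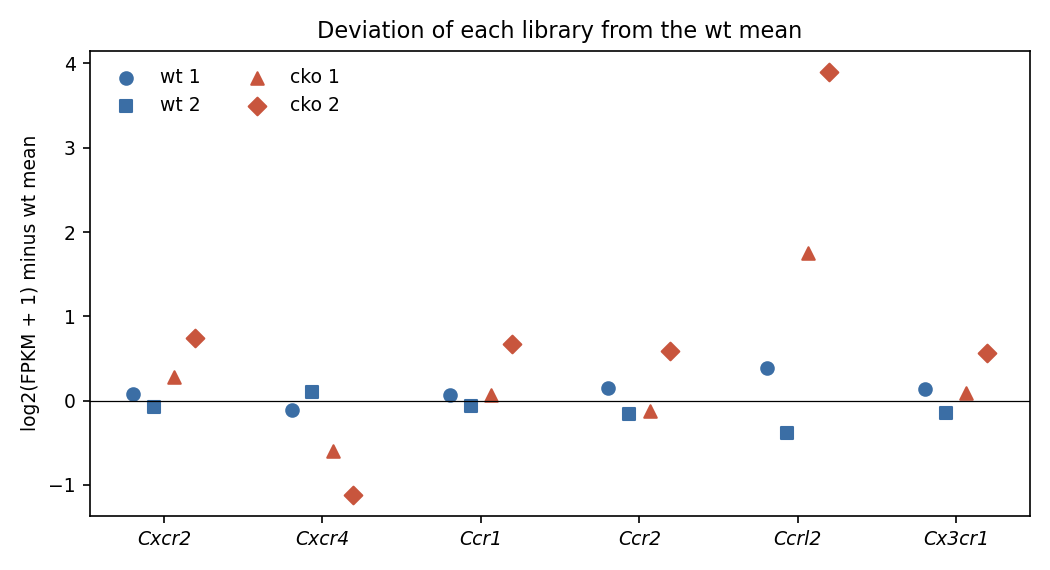
Difference of log2(FPKM + 1) from the wt mean for each receptor and library (wt blue, cko red, one marker shape per library). Replicate 2 of cko lay farthest from 0 for each receptor, at 3.90 for Ccrl2 and -1.11 for Cxcr4, while cko replicate 1 lay at 1.76 and -0.60.

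Levels per length ranked the receptors differently in wt and cko. In wt the order ran from Ccr1 over Cxcr2, Ccr2 or Cxcr4, and Ccrl2 to Cx3cr1, and the values of Ccr2 (24.99 and 20.01 FPKM) and Cxcr4 (18.1 and 21.1 FPKM) overlapped. In both cko libraries Ccrl2 was in the third place, above Ccr2 and Cxcr4. Ccr1 was above Cxcr2 within each library, although their ranges overlapped across the cko libraries. Of the summed FPKM of the 6 receptors, Ccrl2 took 2.67% and 1.64% in wt and 6.63% and 18.1% in cko, and Cxcr4 took 3.38% and 4.36% in wt and 2.16% and 0.884% in cko. Ccr1 and Cxcr2 together made up most of the sum in each library, with 51.7% and 37.1% in wt replicate 1 and 44.1% and 33.0% in cko replicate 2.

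**Figure D4:**
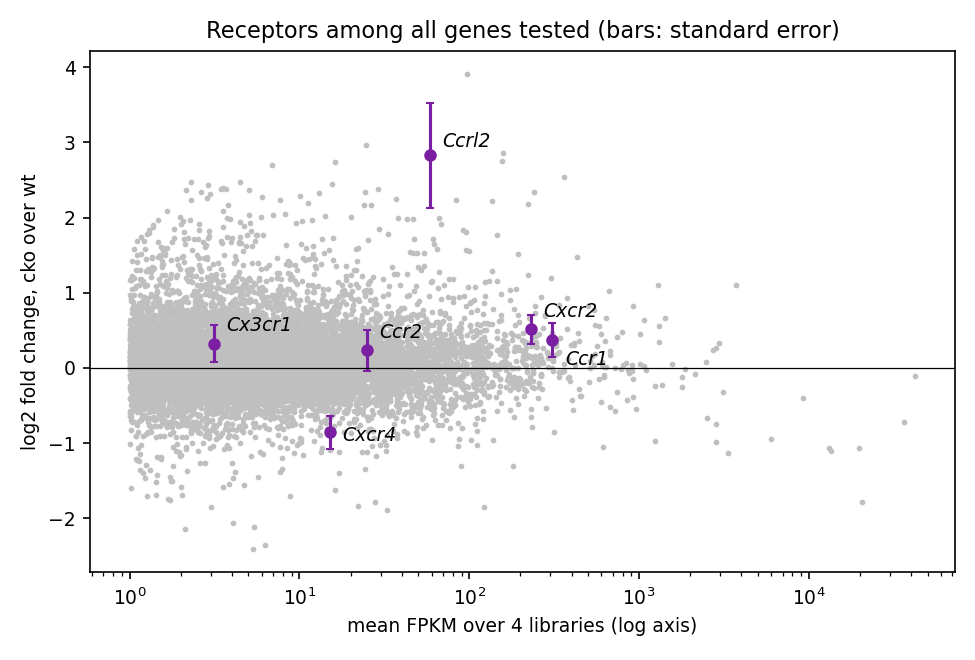
Log2 fold change of cko over wt against the mean FPKM on a log axis for the 10779 tested genes (grey), with the 6 receptors and their standard errors in purple. Ccrl2 at 2.83 lay near the upper edge and Cxcr4 at -0.86 on the lower side of the cloud, and the other members lay between 0.23 and 0.51.

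Outside these 6 genes, chemokine receptor transcripts were scarce. Of 18 further receptors listed, 17 were measured, and 16 of these were below the minimum mean and so were not tested. The 6 receptors held 98.0% to 98.8% of the summed FPKM of all 23 receptors measured. Ackr1, an atypical receptor known from red cell precursors and vessel walls, was the only other that could be tested, with 6.12 and 4.35 FPKM in wt and 2.85 and 6.12 FPKM in cko (log2 fold change -0.24, standard error 0.34, adjusted p = 0.751 from limma). The sign turned to 0.21 without cko replicate 1. Cxcr1, the closest relative of Cxcr2, gave 0 reads in 3 libraries and 2 reads in cko replicate 1. Ccr7, which guides dendritic cells and lymphocytes to lymph nodes, had 0.341 to 1.29 FPKM, and Cxcr3, a receptor of activated lymphocytes, had 0.261 to 1.14 FPKM.

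Ccr1, Ccr2, Ccrl2 and Cx3cr1 lie on chromosome 9, and Cxcr2 and Cxcr4 on chromosome 1. Ccr1 spans 123962124 to 123968692 on the minus strand and Ccr2 124101950 to 124113557 on the plus strand of chromosome 9, with Ccr1l1 and Ccr3 in the interval. Both of these were nearly silent, Ccr3 at 0.0325 to 0.179 FPKM and Ccr1l1 at 0 to 0.291 FPKM. How reads that fit more than a single receptor gene were counted is not given in the sources used here, so that values of receptors with similar relatives are uncertain to this extent. Ccrl2 lies 11719 bp from Ltf, the lactoferrin gene of neutrophil granules, which had 9931 and 10933 FPKM in wt and 9179 and 6761 FPKM in cko (log2 fold change -0.40, adjusted p = 0.372 from limma). The neighbours thus lay on opposite sides of 0. Lrrfip2, on the other side of Ccrl2 at 60073 bp, had 9.04 and 12.6 FPKM in wt and 15.6 and 13.6 FPKM in cko. Cxcr2 (74153989 to 74161246, plus strand) and Cxcr4 (128588199 to 128592293, minus strand) lie far apart on chromosome 1. Arpc2, the actin-nucleating neighbour of Cxcr2, had 980.1 to 1144 FPKM and a log2 fold change of 0.02.

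The annotated span of Cx3cr1 (119901616 to 120069879, minus strand) is 168264 bp and contains other genes. Among them Csrnp1, an AXIN1-induced nuclear factor on the same strand, had 39.5 and 41.5 FPKM in wt and 62.7 and 117 FPKM in cko (log2 fold change 1.06, adjusted p = 0.225 from limma). Cx3cr1 values of 2.29 to 4.35 FPKM were low beside it, and reads from stretches that the annotation gives to both genes cannot be told apart, so that the Cx3cr1 values are uncertain to this extent.

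Ligands of the receptors were measured in the same libraries. Of 19 listed, 18 were measured, with a median log2 fold change of 0.70. The minimum mean was passed by 13, with a median of 1.64, beside 0.09 over all tested genes. Cxcl1, Cxcl3 and Ccl12 passed it only through their cko libraries, and Cxcl12, with both cko libraries below both wt libraries, did not pass. The higher median and the counts that follow therefore rest in part on the minimum. Of the 13, 8 had both cko libraries above both wt libraries, against 33.6% of all genes, and 0 had both below, against 18%. Cxcl1, Cxcl3 and Ccl12 were among the 8. Reads were few for some of them. Ccl12 had 4 and 0 reads in wt and 4 and 44 in cko, and Ccl7 had 41 and 0 in wt and 43 and 269 in cko. For these genes the reads did not resolve cko replicate 1 from wt replicate 1. Cxcl1 had 17 and 5 reads in wt and 34 and 231 in cko. By the unadjusted threshold 3 passed as higher, against 1.88% of all genes, namely Cxcl2, Ccl2 and Ccl3. Cxcl2, a ligand of Cxcr2, had 38.0 and 27.3 FPKM in wt and 110 and 449 FPKM in cko (log2 fold change 2.75, standard error 0.63, adjusted p = 0.212 from limma). Cxcl1 and Cxcl3, which bind the same receptor, had at most 0.410 FPKM in wt and 0.869 to 14.1 FPKM in cko. The median over the 13 ligands was 0.48 without cko replicate 2.

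For Ccr2, its ligand Ccl2 had 16.4 and 13.7 FPKM in wt and 36.1 and 106.0 FPKM in cko (log2 fold change 1.98, standard error 0.48, adjusted p = 0.214 from limma). Ccl7, a further ligand, had 2.30 and 0 FPKM in wt and 2.86 and 19.0 FPKM in cko, and Ccl12 had 0.335 and 0 FPKM in wt and 0.397 and 4.63 FPKM in cko. For Ccr1, its ligand Ccl3 had 51.4 and 32.4 FPKM in wt and 106 and 355 FPKM in cko (log2 fold change 2.22, standard error 0.57, adjusted p = 0.214 from limma). Ccl9 had 15.6 and 9.28 FPKM in wt and 16.2 and 39.9 FPKM in cko, Ccl6 had 214 and 224 FPKM in wt and 180 and 320 FPKM in cko, and Ccl5 stayed between 1.94 and 3.05 FPKM. Ccl4, Mif and Pf4 also passed the minimum, with log2 fold changes of 2.02, 0.38 and -0.21 and overlapping libraries. The fold changes of Cxcr2, Ccr1 and Ccr2 were smaller than those of Cxcl2, Ccl3 and Ccl2, and this difference was not tested.

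The main ligands of the remaining receptors were scarce in these cells. Cxcl12, the main ligand of Cxcr4, had 1.04 and 0.949 FPKM in wt and 0.385 and 0.456 FPKM in cko and was under the minimum. Rarres2, which encodes chemerin, did not exceed 0.201 FPKM, and Cx3cl1, which encodes fractalkine, had 1 read in wt replicate 2 and 0 in the others. Cmklr1, the signalling receptor of chemerin, was also scarce, at 0.0132 and 0.0468 FPKM in wt and 0.235 and 0.730 FPKM in cko.

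**Figure D5:**
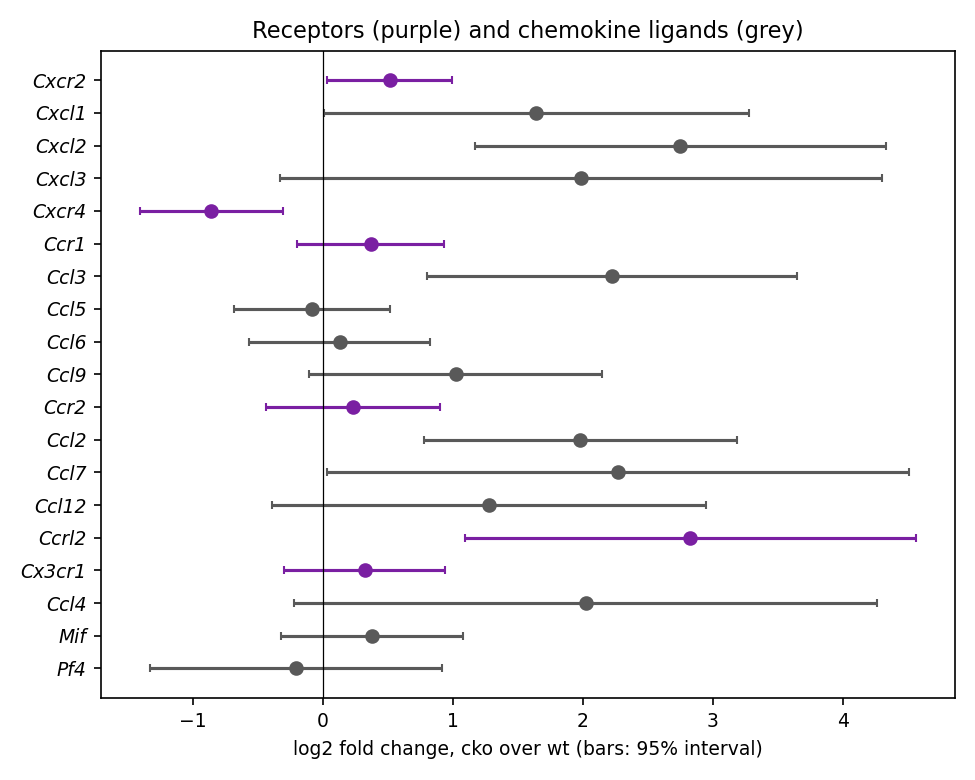
Log2 fold change of cko over wt on log2(FPKM + 1) with 95% intervals for the 6 receptors (purple) and the 13 tested ligands (grey), each receptor above its main ligands and Ccl4, Mif and Pf4 at the bottom. The intervals of Ccrl2, Cxcl2, Ccl2 and Ccl3 start at 0.78 or higher, those of Cxcr2, Cxcl1 and Ccl7 start just above 0, and that of Cxcr4 ends at -0.31.

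Genes that carry or end receptor signals were listed as well. Of 26 listed, 25 passed the minimum mean, 6 had both cko libraries above the wt libraries, against 33.6% of all genes, 4 had both below, against 18%, and 0 passed either threshold. The median log2 fold change was 0.13, which was -0.03 after quantile normalization. The most abundant were Rac2, a GTPase of the neutrophil cytoskeleton (569 to 786 FPKM), Cdc42, which sets cell polarity (484 to 581 FPKM), and Fpr2, a formyl peptide receptor (269 to 375 FPKM), with log2 fold changes of 0.22, 0.16 and 0.13. Gnai2, a G protein subunit to which signalling chemokine receptors couple, had 34.3 and 47.6 FPKM in wt and 55.4 and 51.0 FPKM in cko. The related Gnai3, named beside it for comparison, had 118 to 138 FPKM and a log2 fold change of 0.08.

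Among the same 25 genes, 4 had an unadjusted p under 0.05, a share near the 16.4% of all genes, and are named for that reason after their values were seen. Gnb1, a G protein beta subunit, had 61.5 and 48.2 FPKM in wt and 121 and 90.0 FPKM in cko (log2 fold change 0.93, standard error 0.21, adjusted p = 0.212 from limma). Rgs18, a blood cell regulator that ends G protein signals, had 129.7 and 99.95 FPKM in wt and 57.9 and 59.4 FPKM in cko (log2 fold change -0.95, standard error 0.17, adjusted p = 0.198 from limma). The related Rgs2 had a log2 fold change of -0.42, and Pik3r5, a subunit of the phosphoinositide 3-kinase that chemoattractant receptors engage, of 0.54. Grk2 and Arrb2, which switch off and internalise receptors, had log2 fold changes of 0.18 and -0.29 with overlapping libraries.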

How the data were processed

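RNA-seq was analysed for 4 libraries of mouse myeloid cells, grouped by the genotype in their labels. The authors deposited FPKM values, 1 library per file. The submitters' processing notes name Bowtie2 2.2.3, TopHat2 2.0.12, HTSeq 0.6.0 and build mm9, although the positions of 92.6% of genes equalled those of GRCm38 (GENCODE M21), the build used here. Filters and strand setting were not given in the sources used here. FPKM were used without scaling between libraries. Whole reads (within 0.01 of a read) were recovered for 98.6% of genes, for all 6 receptors from annotated lengths.

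The groups were compared by lmFit and eBayes with a trend (limma 3.58.1, R 4.3.3) on log2(FPKM + 1), with Benjamini-Hochberg adjustment over 10779 genes, without covariates, and tested on simulated data. The simulation gave all genes the same dispersion, so it cannot say how the fit performs on these libraries. This scale understates changes of low genes. The 95% Clopper-Pearson intervals are computed from reads and describe counting error only. Members and gene lists were chosen with earlier results of these data known, and no list was tested as a set. Genes named are the members, listed genes past a threshold or among the 3 most abundant of their list, tested ligands, coding genes within 100 kb of a member, and the 3 genes most like each member, with exceptions. Csf3r, Lcn2, Gnai2, Grk2, Arrb2, Cmklr1, Cd3e and Itgam, among others, were named outside these rules. Alternatives were a pseudocount of 0.1, other minimum levels, scaling, blocks, voom on reads and each library left out. Figures used Python 3.11.15 and matplotlib 3.10.9.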

Additional observations from a re-analysis of the deposited data

How the results depend on the processing

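No receptor passed an absolute log2 fold change of at least 1 with an adjusted p under 0.05 under any alternative, and limma's adjusted p lay in the range 0.0752 to 0.939. Ccrl2, Cxcr2, Cxcr4, Ccr1 and Cx3cr1 kept their direction throughout, and Ccr2 turned to -0.12 without cko replicate 2. With median-of-ratios scaling between libraries, log2 fold changes were 2.71 for Ccrl2, -0.97 for Cxcr4 and 0.40 for Cxcr2. They were 0.25 for Ccr1, 0.12 for Ccr2 and 0.23 for Cx3cr1, each closer to 0 than without scaling. Across the 4 omissions of a library, log2 fold changes ranged from 1.76 to 3.90 for Ccrl2, -1.11 to -0.60 for Cxcr4, 0.29 to 0.74 for Cxcr2, 0.06 to 0.68 for Ccr1, -0.12 to 0.58 for Ccr2 and 0.09 to 0.56 for Cx3cr1. The Ccr2 to Cx3cr1 ratio (-0.09) ranged from -0.21 to 0.023, and was -0.17 with a pseudocount of 0.1 and -0.19 from voom. The cause was not tested.

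The 1 receptor past the unadjusted threshold, Ccrl2, became 0 with no filter on low values, with no trend and under the replicate block, and 0 to 2 on omission of a library. Genes past that threshold numbered 203 higher and 44 lower, 142 and 71 with median-of-ratios scaling, which moved the median of all genes from 0.09 to -0.0056, 126 in all once genes averaging under 5 FPKM were dropped (fewer genes tested), and 131 to 462 on omission of a library. By adjusted p, 0 genes passed, and 2 by voom on recovered reads. No label says that equal replicate numbers mark a pair, and the differences between replicates correlated across genes with r = -0.16. The replicate block gave 215 higher and 43 lower genes. A crossed pairing, added after seeing the data, gave 298 higher, 65 lower and 1 gene by adjusted p.

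The ligand median of 1.64 was 0.70 over all 18 measured ligands and 2.25 with a pseudocount of 0.1, and ranged from 0.48 to 2.65 on omission of a library. The median of the signalling genes, 0.13, was -0.0093 with a minimum of 5 FPKM, 0.012 with median-of-ratios scaling and -0.032 after quantile normalization. On omission of a library it was 0.031 to 0.11. With erythroid and hepatocyte genes removed it was 0.33, and the median of all genes moved to 0.27. That setting also scaled all libraries to the same summed FPKM, from 491983 and 457127 in wt and 412778 and 403900 in cko. The removed erythroid genes summed to at most 3726 FPKM and the hepatocyte genes to at most 144 FPKM in a library. Where 1 library of a group was left, it was assumed to vary like the other group. Cx3cr1 gave no value with a minimum of 5 FPKM. Depth limits Cx3cr1, with 194 to 347 reads, more than Ccr1, with at least 13512.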

Other observations

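For each receptor the genes with the most similar profile were sought, as the smallest root mean square difference of centred log2(FPKM + 1) over the 4 libraries among tested genes. With 4 libraries many genes come close, and nothing about shared function follows from it. For Ccrl2 these were Cxcl2 at a distance of 0.125, Cxcl10 at 0.168 and the predicted gene Gm23722 at 0.19. Cxcl10 encodes an interferon-inducible chemokine and had 5.98 and 2.03 FPKM in wt and 16.3 and 73.8 FPKM in cko. Cxcr2 was closest to Pvr (0.0139), Slfn4 (0.0193) and Zfp36 (0.0246), of which Zfp36 encodes an mRNA decay factor and had 384 and 344 FPKM in wt and 426 and 596 FPKM in cko. Ccr1 was closest to Nol12, Irak3 and Sms, at 0.0205 to 0.025, and Irak3, a brake on Toll-like receptor signalling, had 23.1 and 21.3 FPKM in wt and 22.8 and 36.9 FPKM in cko.

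Cxcr4 was closest to 9830107B12Rik (0.0262), to the septin gene with Ensembl identifier ENSMUSG00000072214 (0.0299), whose symbol appears as a date in the deposited files, and to 2810001G20Rik (0.0503). Ccr2 was closest to Plpp3, Wdr75 and Rnf24, at 0.0176 to 0.0374, and Cx3cr1 to Gm37963, N4bp2 and Clic4, at 0.0199 to 0.0268. Between the receptors themselves the smallest distances were those of Ccr1 to Cx3cr1 (0.0776) and of Cxcr2 to Ccr1 (0.0912), and the largest was that of Cxcr4 to Ccrl2 (2.10).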
